A study of Mus musculus with 11 samples.

Results

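Genes of the inflammasome and interleukin-1 axis were followed in whole mouse liver: the cytokines Il1a, Il1b, Il18 and Tnf, the receptor antagonist Il1rn, the sensors Nlrp3, Nlrc4 and Nlrp12, the protease Casp1 and the pore-forming protein Gsdmd. They were chosen by name as genes of the pathway, with earlier results of these data known, and these 10 genes stand among 55414 genes in the count table. All 10 passed the filter on low counts that left 17038 genes for testing. RNA was sequenced from the livers of 11 male mice, and all of them, the chow controls included, carried Clec4f-DTR, a diphtheria toxin receptor under the control of Clec4f, a gene of Kupffer cells, the resident macrophages of the liver. Feeding began at 8 weeks of age and lasted 16 weeks. The chow group held 3 mice on chow diet, for which the labels name no injections. The WDA-saline group held 4 mice on western diet with alcohol and serial saline injections, and the WDA-DT group held 4 mice on the same diet with serial DT injections, DT being the toxin that the receptor binds. Diet, alcohol and injections therefore change together between chow and either other group and cannot be told apart. The dose and timing of DT are not given in the sources used here, and the labels number the replicates without further detail, so the p-values measure the spread between these livers.

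An inflammasome is a protein complex built by a sensor such as NLRP3 or NLRC4, usually through the adaptor ASC. It activates caspase-1, which cuts the precursors of interleukin-1 beta and interleukin-18 into their active forms and cuts gasdermin D, whose fragment opens pores in the plasma membrane. Interleukin-1 alpha does not need caspase-1 to be active, and the antagonist encoded by Il1rn occupies the same receptor without signalling. Transcripts report neither cleavage nor secretion, so the values below describe the RNA of these genes and not the activity of the complex.

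Library totals ran from 43995217 to 58089531 counts. Levels are given as CPM (counts scaled to the size of the library) with library sizes scaled by TMM, the trimmed mean of M-values, and 3 counts, the limit that a count of 0 allows, came to 0.0398 to 0.0773 CPM, which covers counting error only. That limit takes each count as a separate fragment, and it would be higher if counts hold both mates of a read pair. The 7 hepatocyte markers summed to between 64500 and 127000 CPM in every liver, so hepatocyte transcripts were abundant in all 11 livers. The summed level of 8 Kupffer cell markers, Clec4f among them, was 464 to 602 CPM in chow, 451 to 540 in WDA-saline and 220, 344, 245 and 221 in WDA-DT livers 1 to 4. By edgeR's quasi-likelihood test at an adjusted p of 0.05, 7 of the 8 were lower in WDA-DT than in WDA-saline, beside 7.62% of all tested genes. C6 and Cd5l were the largest parts of the sum, and C6, the marker not called, was at 109 to 183 CPM in WDA-saline and 60.7 to 154 in WDA-DT. Clec4f itself was at 43.1 to 49.1 CPM in WDA-saline and at 9.06, 15.2, 7.51 and 6.18 in WDA-DT livers 1 to 4. WDA-DT liver 2 stood apart from the other WDA-DT livers: its lipid-associated macrophage markers summed to 148 CPM, within the WDA-saline range of 102 to 190, against 596, 528 and 804 CPM in livers 1, 3 and 4. Spp1 was the largest part of the sum in livers 1, 3 and 4, at 273, 174 and 313 CPM, and was at 19.7 CPM in liver 2. Trem2 in liver 2 was at 4.66 CPM, above the WDA-saline range of 0.724 to 3.4, while the other markers of the list lay within their WDA-saline ranges. Member differences that involve the WDA-DT group are therefore given with and without that liver, which was picked out after such values were seen.

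The promoters of the members on which the results turn are shown for orientation. They are the 250 bases upstream of the start of Nlrp12, the member called against chow, of Il18, the member called between the WDA groups, and of the paired ligands Il1a and Il1b. The sequences are from RefSeq on GRCm38.p6, an earlier build than the authors' alignment. They run 5′ to 3′ on the strand of the gene, with motif matches in capitals.
Nlrp12, chr7:3249741-3249990, minus strand: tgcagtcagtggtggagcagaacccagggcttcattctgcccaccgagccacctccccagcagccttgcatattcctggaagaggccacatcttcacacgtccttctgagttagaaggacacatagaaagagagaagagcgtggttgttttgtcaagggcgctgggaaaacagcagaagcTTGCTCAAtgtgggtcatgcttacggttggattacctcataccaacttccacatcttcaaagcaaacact
Il18, chr9:50554450-50554699, plus strand: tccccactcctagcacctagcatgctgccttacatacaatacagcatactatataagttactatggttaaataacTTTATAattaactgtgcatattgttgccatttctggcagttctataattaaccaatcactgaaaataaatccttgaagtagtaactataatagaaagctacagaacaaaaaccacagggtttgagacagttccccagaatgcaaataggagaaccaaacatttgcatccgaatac
Il1a, chr2:129309973-129310222, minus strand: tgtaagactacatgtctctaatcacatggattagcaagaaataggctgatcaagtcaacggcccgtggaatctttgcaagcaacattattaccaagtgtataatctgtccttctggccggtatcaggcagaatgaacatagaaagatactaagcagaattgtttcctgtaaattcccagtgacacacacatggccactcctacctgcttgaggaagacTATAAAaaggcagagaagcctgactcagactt
Il1b, chr2:129371140-129371389, minus strand: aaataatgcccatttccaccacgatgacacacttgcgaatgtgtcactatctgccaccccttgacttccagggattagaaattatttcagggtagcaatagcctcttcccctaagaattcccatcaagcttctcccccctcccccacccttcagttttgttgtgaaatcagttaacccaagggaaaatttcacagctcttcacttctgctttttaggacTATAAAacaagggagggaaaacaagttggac

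Windows of this kind were found for 9 of the 10 genes, 12 windows in all. They were searched on both strands for the core promoter letters TATAAA, for the C/EBP motif TTGCNNAA, for the PU.1 motif GAGGAAGT, for the HNF4A motif CAAAGTCCA, and for a kB motif (the site of NF-kB) and an HNF1 motif. In Il1a the letters TATAAA lay 32 to 27 bases upstream of the start, and in Il1b they lay 31 to 26 bases upstream. Tnf held the same letters 29 to 24 bases upstream, and Il18 held them on the reverse strand at bases 175 to 170. Of 32851 mouse promoter windows of this length, 12.4% held these letters. The Nlrp12 window held a C/EBP match, TTGCTCAA, 70 to 63 bases upstream, and the Nlrc4 window held one on the reverse strand, TTAAGCAA, 36 to 29 bases upstream, as 9.56% of all windows held one. A kB match was found among these genes in 1 window of Il1rn, GGGTTTTTCC at bases 51 to 42, and in 1.41% of all windows. These are matches of letters, and binding was not measured.

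Between chow and either WDA group the change that passed the test was a fall of Nlrp12, and between the WDA groups it was a fall of Il18 in WDA-DT. Counted over the 10 genes, 1 was called lower in each comparison and 9 were not called. In WDA-saline against chow, 5.58% of all tested genes were called in either direction and 3.13% lower. In WDA-DT against WDA-saline these shares were 21.9% and 7.62%, and in WDA-DT against chow 23% and 8.16%. With only 10 genes, 1 call does not set the members apart from the background in any of these comparisons. In the reported edgeR fit no member was called higher in any comparison, against 2.45%, 14.3% and 14.8% of all tested genes in that order. With total-count scaling 0, 1 and 4 members were called higher, beside 3.48%, 30.4% and 36.4% of all tested genes. At an unadjusted p of 0.05, 2, 0 and 3 members were higher, beside 9.94%, 22.6% and 21.9% of all tested genes, and 1, 2 and 1 were lower, beside 11%, 14.8% and 15.7%. DESeq2 called 2, 1 and 3 members in either direction, beside 9.87%, 24.1% and 23.1% of genes with an adjusted p. Limma-voom called 1 in each, beside 4.17%, 17.9% and 15.9%. Without WDA-DT liver 2, 1 member was called lower in WDA-DT against WDA-saline, and 2 were higher and 2 lower in WDA-DT against chow, while 40.3% of tested genes were called in either of these comparisons, so 4 of 10 is the background share.

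The fold change was positive for 9 of 10 members in WDA-saline against chow, 5 of 10 between the WDA groups and 8 of 10 in WDA-DT against chow, comparisons that share livers. The median log2 difference of the members was 0.50, 0.05 and 0.54 in that order, beside 0.00157, 0.0216 and -0.018 for all genes. Groups did not overlap for 4 members higher in WDA-saline than in chow (Il1a, Il18, Nlrp3 and Casp1), where 14.8% of all genes lay fully higher, and for Nlrp12 as the 1 lower, where 15.6% did. Between the WDA groups 0 members were fully higher (9.33% of all genes) and 2 were fully lower, Il1a and Il18 (9.97%). Against chow, 1 member was fully higher in WDA-DT, Gsdmd (14.8% of all genes), and 1 fully lower, Nlrp12 (14.4%).

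Nlrp12, an NLR family member known as a restraint on inflammatory signalling, was the most abundant of the 10 in chow liver per length and fell by more than 4-fold in both WDA groups. The chow livers held 183, 180 and 147 CPM, the WDA-saline livers 43.6, 29.7, 28.4 and 48.8, and the WDA-DT livers 28.4, 43.9, 40.1 and 33.9. Each WDA liver was below each chow liver, and the WDA groups overlapped. The means were 170 ± 19.6 CPM in chow (SD, n = 3), 37.6 ± 10.1 in WDA-saline (SD, n = 4) and 36.6 ± 6.85 in WDA-DT (SD, n = 4). WDA-saline was 4.52-fold lower than chow, a log2 difference of -2.18 (SE 0.21, adjusted p = 0.000441 by edgeR's quasi-likelihood test with Benjamini-Hochberg adjustment over all tested genes). WDA-DT was 4.65-fold lower than chow (log2 difference -2.22, SE 0.21, edgeR adjusted p = 0.000483). Between the WDA groups the log2 difference was -0.04 (SE 0.19, edgeR adjusted p = 0.899), and -0.14 without WDA-DT liver 2 (edgeR adjusted p = 0.603). Without that liver WDA-DT differed from chow by -2.32 (edgeR adjusted p = 3.01e-05). Nlrp12 was called in both comparisons with chow under all 23 alternatives, with log2 differences of -2.33 to -2.04 and -2.32 to -1.77 and a highest adjusted p of 0.0057. In whole tissue, fewer cells of a type and less RNA per cell cannot be told apart. The hepatocyte markers summed to 105000 to 127000 CPM in chow, 90200 to 105000 in WDA-saline and 64500 to 92100 in WDA-DT; their part in the result was not tested. In the mouse GENCODE M21 annotation, 7 microRNA genes overlap the exons of Nlrp12, and the strand setting of the counting is not given in the sources used here.

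**Figure D1:**
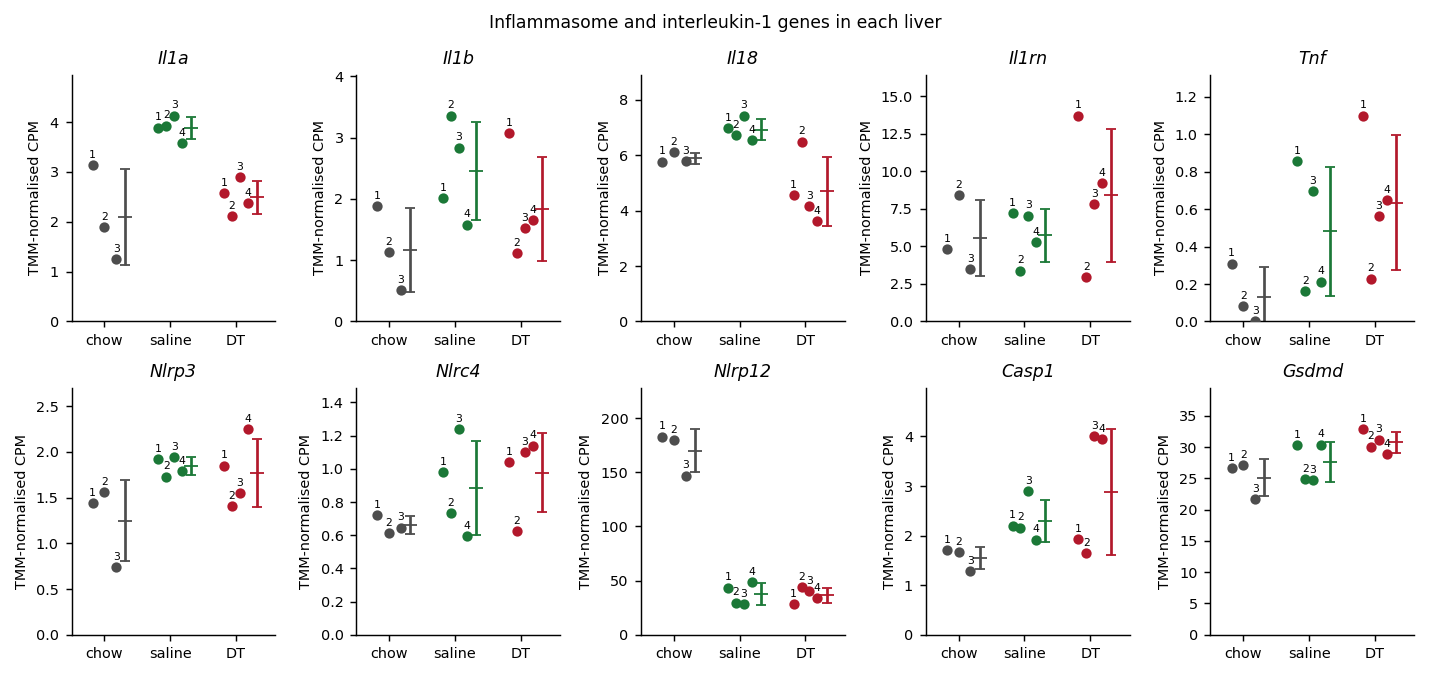
Normalised level (CPM, y axis) of each of the 10 genes in the 3 chow, 4 WDA-saline and 4 WDA-DT livers, 1 panel per gene with its own axis; points are livers marked with their replicate numbers, and bars are the group mean ± SD. Nlrp12 lies at 147 to 183 CPM in chow and below 49 CPM in both WDA groups, and in the Il18 panel all WDA-DT livers lie below all WDA-saline livers.

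Il18, the interleukin-18 gene, was the one member called between the WDA groups, where it fell 1.47-fold in WDA-DT. Its level was 5.77, 6.12 and 5.79 CPM in chow, 6.97, 6.73, 7.43 and 6.56 in WDA-saline and 4.55, 6.49, 4.17 and 3.62 in WDA-DT. All WDA-saline livers were above all chow livers, and all WDA-DT livers were below all WDA-saline livers, the nearest being WDA-DT liver 2 at 6.49 against 6.56 CPM. The log2 difference of WDA-DT from WDA-saline was -0.56 (SE 0.18, edgeR adjusted p = 0.0434), from means of 4.71 ± 1.25 and 6.92 ± 0.376 CPM (SD, n = 4 each). Without WDA-DT liver 2 it was -0.75 (edgeR adjusted p = 0.00131). The call is close to its threshold: it was kept in 7 of 23 alternatives, and of the 11 fits that each left out 1 liver it was kept only in the fit without WDA-DT liver 2. In the other 10 the adjusted p lay between 0.06 and 0.116, the highest without WDA-DT liver 3. With libraries scaled to their total counts, which puts the median of all genes at 0.36 in this comparison, the Il18 difference was -0.25 (edgeR adjusted p = 0.19). WDA-saline differed from chow by 0.23 (SE 0.19, edgeR adjusted p = 0.546), and WDA-DT from chow by -0.33 (SE 0.19, edgeR adjusted p = 0.233). With WDA-DT liver 2 left out, the latter became -0.52 (edgeR adjusted p = 0.0134). The Kupffer marker sums given above were also lower in the WDA-DT livers; their part in the Il18 result was not tested.

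Il1a, the alarmin interleukin-1 alpha, had 3.14, 1.90 and 1.25 CPM in chow, 3.89, 3.93, 4.13 and 3.58 in WDA-saline and 2.58, 2.12, 2.89 and 2.37 in WDA-DT. The WDA-saline livers were the highest, with no overlap with either other group, and the WDA-DT livers lay within the chow range. WDA-saline differed from chow by 0.89 on the log2 scale (SE 0.28, edgeR adjusted p = 0.0911) and WDA-DT from WDA-saline by -0.64 (SE 0.25, edgeR adjusted p = 0.0891), so neither passed the threshold. WDA-DT differed from chow by 0.25 (SE 0.28, edgeR adjusted p = 0.534). Without WDA-DT liver 2 the difference between the WDA groups was -0.57 (edgeR adjusted p = 0.104) and that of WDA-DT from chow 0.32 (edgeR adjusted p = 0.392). WDA-saline against chow was called by DESeq2 (0.91, adjusted p = 0.0164) and by edgeR without chow liver 1 (1.30, adjusted p = 0.0384), in which Il1a was highest among chow livers. It was also called with only the 2 groups in the fit (adjusted p = 0.0396) and without WDA-DT livers 1 and 2 (adjusted p = 0.0377). WDA-DT against WDA-saline was called without chow liver 1 (-0.64, adjusted p = 0.0498). Il1a exons overlap a gene on the other strand, Gm14023.

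Il1b, interleukin-1 beta, was at 1.88, 1.13 and 0.508 CPM in chow, at 2.02, 3.36, 2.84 and 1.58 in WDA-saline and at 3.07, 1.12, 1.52 and 1.66 in WDA-DT. The groups overlapped in every comparison. The log2 differences were 1.07 for WDA-saline from chow (SE 0.47, edgeR adjusted p = 0.221), -0.40 for WDA-DT from WDA-saline (SE 0.42, edgeR adjusted p = 0.503) and 0.66 for WDA-DT from chow (SE 0.47, edgeR adjusted p = 0.322). Leaving out WDA-DT liver 2 turned the last 2 of these into -0.23 (edgeR adjusted p = 0.686) and 0.84 (edgeR adjusted p = 0.169). Il1b exons overlap an antisense gene, Il1bos.

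Il1rn, the natural receptor antagonist, was at 4.84, 8.39 and 3.46 CPM in chow, 7.21, 3.38, 7.04 and 5.28 in WDA-saline and 13.7, 2.93, 7.81 and 9.19 in WDA-DT. WDA-DT liver 1 held the highest and WDA-DT liver 2 the lowest level of all 11 livers. WDA-DT differed from WDA-saline by 0.55 (SE 0.42, edgeR adjusted p = 0.358), and by 0.83 without WDA-DT liver 2 (edgeR adjusted p = 0.0709). It differed from chow by 0.59 (SE 0.46, edgeR adjusted p = 0.367), and by 0.87 without that liver (edgeR adjusted p = 0.0808). WDA-saline differed from chow by 0.04 (SE 0.45, edgeR adjusted p = 0.974), a difference whose sign changed with a replicate block and with GC correction.

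Tnf, the tumour necrosis factor gene, was the lowest member per length in chow. Chow livers had 0.309, 0.0819 and 0 CPM, WDA-saline livers 0.856, 0.163, 0.695 and 0.213, and WDA-DT livers 1.10, 0.229, 0.565 and 0.649. The chow values are 12, 4 and 0 counts, and 0 counts in chow liver 3 allows up to 0.0692 CPM, or more if counts hold both mates. WDA-DT differed from chow by 2.32 (SE 0.95, edgeR adjusted p = 0.0971), and by 2.60 without WDA-DT liver 2 (edgeR adjusted p = 0.0403). DESeq2 called the difference with all livers (2.36, adjusted p = 0.0338). WDA-saline differed from chow by 1.91 (SE 0.95, edgeR adjusted p = 0.28) and WDA-DT from WDA-saline by 0.41 (SE 0.76, edgeR adjusted p = 0.724), or by 0.67 without WDA-DT liver 2 (edgeR adjusted p = 0.487). The size of the Tnf differences rests on single livers. Without chow liver 1 the differences from chow were 3.44 in WDA-saline and 3.84 in WDA-DT (edgeR adjusted p = 0.184 and 0.0594), and without chow liver 3 they were 1.33 and 1.73 (edgeR adjusted p = 0.516 and 0.222).

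Among the inflammasome sensors, Nlrp3, which responds to membrane and ionic disturbance, was at 1.44, 1.56 and 0.738 CPM in chow, 1.92, 1.73, 1.94 and 1.79 in WDA-saline and 1.85, 1.41, 1.55 and 2.25 in WDA-DT. Each WDA-saline liver was above each chow liver, but the log2 difference of 0.56 was not called (SE 0.29, edgeR adjusted p = 0.304). Between the WDA groups it was -0.06 (SE 0.26, edgeR adjusted p = 0.894), and 0.034 without WDA-DT liver 2 (edgeR adjusted p = 0.932). WDA-DT differed from chow by 0.51 (SE 0.29, edgeR adjusted p = 0.225), or by 0.60 without that liver (edgeR adjusted p = 0.122). Nlrc4, the sensor that acts with NAIP proteins on bacterial flagellin and secretion systems, was at 0.721, 0.614 and 0.646 CPM in chow, 0.978, 0.732, 1.24 and 0.596 in WDA-saline and 1.04, 0.624, 1.10 and 1.14 in WDA-DT. The groups overlapped, and the largest difference was 0.57 for WDA-DT from chow (SE 0.34, edgeR adjusted p = 0.242), which was 0.73 without WDA-DT liver 2 (edgeR adjusted p = 0.0868). The difference of WDA-saline from chow was 0.43 (SE 0.34, edgeR adjusted p = 0.527) and that of WDA-DT from WDA-saline 0.14 (SE 0.31, edgeR adjusted p = 0.765), or 0.30 without WDA-DT liver 2 (edgeR adjusted p = 0.432).

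Casp1, the inflammasome protease, was at 1.70, 1.66 and 1.29 CPM in chow, 2.20, 2.16, 2.89 and 1.92 in WDA-saline and 1.93, 1.64, 4.00 and 3.95 in WDA-DT. WDA-DT livers 3 and 4 were the highest of all 11, while WDA-DT liver 1 lay at the lower end of the WDA-saline range and WDA-DT liver 2 below it. WDA-DT differed from chow by 0.90 (SE 0.34, edgeR adjusted p = 0.0786), by 1.09 without WDA-DT liver 2 (edgeR adjusted p = 0.0133) and by 1.06 without WDA-DT liver 1 (edgeR adjusted p = 0.0481). Without both of those livers it was 1.36 (edgeR adjusted p = 0.000823), a choice made after the values were seen. WDA-DT differed from WDA-saline by 0.33 (SE 0.31, edgeR adjusted p = 0.454), and by 0.52 without WDA-DT liver 2 (edgeR adjusted p = 0.145). The difference of WDA-saline from chow was 0.56 (SE 0.34, edgeR adjusted p = 0.384), with each WDA-saline liver above each chow liver. Monocyte markers summed to 31.4, 11.6, 30.8 and 43.2 CPM in WDA-DT livers 1 to 4, against 7.18 to 15.3 in WDA-saline and 4.12 to 6.18 in chow. Cx3cr1 alone held 14.8, 2.46, 11.6 and 22.3 CPM of the WDA-DT sums. Of the 7 markers only it was called between the WDA groups, where 14.3% of all tested genes were called higher. F13a1 was at 0 in 2 chow livers and 1 WDA-saline liver. The part of these markers in the Casp1 levels was not tested. Gsdmd, gasdermin D, was at 26.6, 27.1 and 21.7 CPM in chow, 30.3, 24.9, 24.7 and 30.4 in WDA-saline and 32.9, 30.1, 31.2 and 28.9 in WDA-DT. Every WDA-DT liver was above every chow liver. The log2 difference was 0.29 (SE 0.12, edgeR adjusted p = 0.0999), and 0.76 with total-count scaling (edgeR adjusted p = 0.00441), which puts the median of all genes at 0.44. Leaving out WDA-DT liver 2 gave 0.30 (edgeR adjusted p = 0.0763). The difference of WDA-saline from chow was 0.13 (SE 0.12, edgeR adjusted p = 0.589) and that of WDA-DT from WDA-saline 0.16 (SE 0.11, edgeR adjusted p = 0.316), or 0.17 without WDA-DT liver 2 (edgeR adjusted p = 0.27). With total-count scaling the difference between the WDA groups was 0.50 and was called (edgeR adjusted p = 0.0167).

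**Figure D2:**
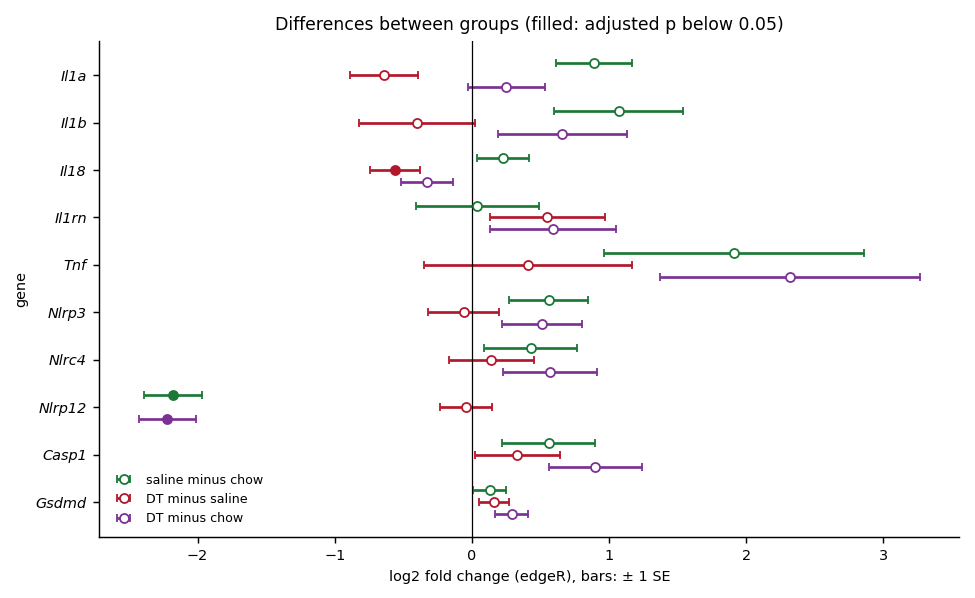
Log2 fold change (x axis) of each gene in the 3 comparisons from the edgeR fit, with bars of 1 SE; filled points passed an adjusted p of 0.05. Nlrp12 at -2.18 and -2.22 against chow and Il18 at -0.56 between the WDA groups are the filled points.

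Per kilobase of exon, the order of the members differed between chow and the WDA groups. In chow it was led by Nlrp12 at 22.5 ± 2.6 CPM per kb, then Gsdmd at 10.6 ± 1.25 and Il18 at 5.72 ± 0.191 (SD, n = 3). In WDA-saline Gsdmd led at 11.6 ± 1.35, followed by Il18 at 6.71 ± 0.365 and Nlrp12 at 4.98 ± 1.34 (SD, n = 4). In WDA-DT Gsdmd was at 12.9 ± 0.705, and Nlrp12 at 4.85 ± 0.907 and Il18 at 4.57 ± 1.21 differed by less than their spread (SD, n = 4). The other 7 genes had group means below 2 CPM per kb. Nlrc4 and Tnf were at the bottom in every group, at 0.137 and 0.0795 CPM per kb in chow.

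Across the 11 livers the members moved in more than 1 way. On log2 CPM, Pearson's r between Il1a and Il1b was 0.84, and 0.77 after the group means were removed. Between Nlrp3 and Tnf it was 0.82 (0.71 within groups), and between Nlrc4 and Casp1 0.80 (0.70). Il18 ran against Casp1, at -0.53 (-0.67 within groups), and Nlrp12 against Tnf, at -0.67 (-0.06 within groups). The pairs were picked from all member pairs by their values, and no correlation without WDA-DT liver 2 is given. These correlations are descriptions over livers that share groups and depth. The genes most like Nlrp12 among 17037 others were Gm15441 and Ctif, each at r = 0.97, and 4833411C07Rik at 0.96. Those most like Il18 were Dhrs1 and Bmp10 at 0.97 and Hhip at 0.96, and those most like Casp1 were Ncoa7, Cybb and Cyria, each at 0.97. WDA-DT liver 2 had the lowest level of its group in 7 members (Il1a, Il1b, Il1rn, Nlrp3, Nlrc4, Casp1 and Tnf) and the highest in Il18 and Nlrp12, while WDA-DT liver 1 had the highest Il1rn, Il1b, Tnf and Gsdmd.

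**Figure D3:**
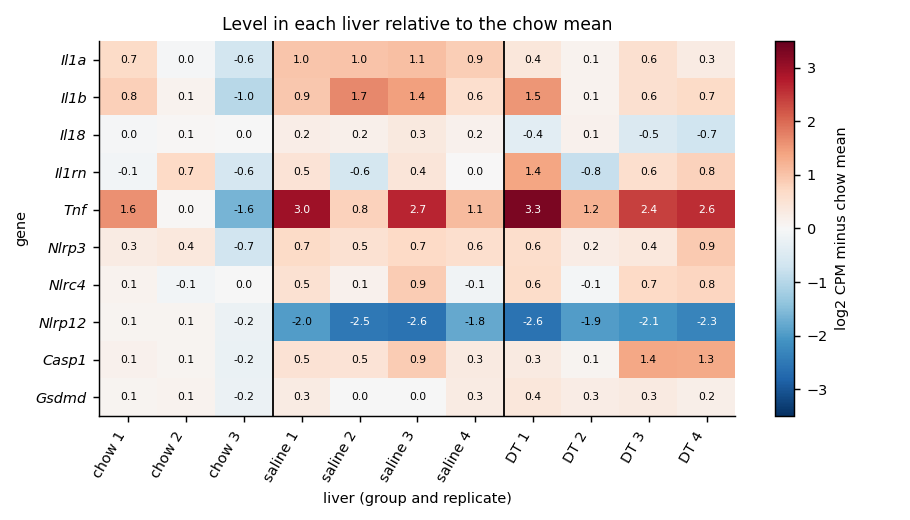
Log2 CPM of each gene (rows) in each of the 11 livers (columns, by group), shown as the difference from that gene's chow mean; saline and DT stand for WDA-saline and WDA-DT. Nlrp12 is low in all 8 WDA livers, and WDA-DT liver 2 is the lowest WDA-DT liver in 7 genes.

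The other genes of the pathway were described from 7 lists. Their counts stand beside the shares of all tested genes called in the reported fit. In WDA-saline against chow 2.45% were higher and 3.13% lower. In WDA-DT against WDA-saline these were 14.3% and 7.62%, and in WDA-DT against chow 14.8% and 8.16%. Over these lists, 14 genes were called in WDA-DT against WDA-saline and 30 in WDA-DT against chow. All of them kept their call and direction without WDA-DT liver 2, a setting that calls 40.3% of all tested genes in each comparison. Over all tested genes, that setting shared 3688 of the 3734 calls and 3875 of the 3919 calls of the reported fit. Keeping a call there is therefore not particular to these lists. Of the other interleukin-1 family ligands, 2 of 6 could be tested, and Il33, an alarmin of epithelial and stromal cells, rose in WDA-DT against chow by 1.37 (edgeR adjusted p = 0.0347). Its levels were 0.541, 1.19 and 0.784 CPM in chow, 2.81, 2.03, 2.12 and 1.92 in WDA-saline and 2.90, 0.874, 2.75 and 2.15 in WDA-DT. The WDA-DT livers overlapped chow, and the call in WDA-DT against chow did not hold without chow liver 1 (edgeR adjusted p = 0.127). Each WDA-saline liver was above each chow liver, by 1.40 in the fit but not called (edgeR adjusted p = 0.0731). Between the WDA groups the Il33 difference was -0.03 (edgeR adjusted p = 0.959). Of the receptors and decoys, 7 of 9 were tested, with 1 higher in WDA-DT against WDA-saline (Sigirr, an inhibitory receptor) and 3 higher in WDA-DT against chow (Sigirr, Il18r1 and Il1rl2). Without WDA-DT liver 2 these were 2 higher and 1 lower, and 4 higher and 1 lower. Il1r1, the signalling receptor for both interleukin-1 forms, was not called in the 3 comparisons (edgeR adjusted p = 0.224, 0.245 and 0.643). In receptor signalling, 10 genes were tested. Irak2, a kinase of the MyD88 complex, was lower than chow in WDA-saline by 0.57 on the log2 scale and in WDA-DT by 0.58 (edgeR adjusted p = 0.0381 and 0.0146), falling from 43.1, 42.4 and 30.8 CPM in chow to 23.3 to 29.9 in WDA-saline. The WDA-saline call did not hold without chow liver 1 (adjusted p = 0.178). Tollip and Map3k7, an inhibitor and a kinase of the same path, were lower in WDA-DT than in WDA-saline (edgeR adjusted p = 0.0316 and 0.0382), and neither call held with total-count scaling. Without WDA-DT liver 2, 2 of this list were lower in WDA-DT against WDA-saline and 3 in WDA-DT against chow.

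Of 14 other sensors and adaptors, 2 were lower in WDA-saline against chow (Nlrp6 and Txnip) with the other 12 not called. In WDA-DT against WDA-saline 1 was higher (Aim2, a DNA sensor) and 1 lower (Naip1), and in WDA-DT against chow 4 were higher (P2rx7, Pycard, Aim2 and Naip2) and 3 lower (Naip1, Nek7 and Nlrp6). Nlrp6, a sensor of epithelial cells, was at 162 to 164 CPM in all chow livers, 80.4 to 111 in WDA-saline and 72.5 to 111 in WDA-DT, with no overlap between chow and either WDA group. It fell by 0.77 in WDA-saline (edgeR adjusted p = 0.0191, and 0.0833 without chow liver 1) and by 0.83 in WDA-DT (edgeR adjusted p = 0.00697). With total-count scaling the latter fall was 0.37 (edgeR adjusted p = 0.0677). Txnip, which binds NLRP3 and is induced by glucose, fell in WDA-saline against chow by 1.37 (edgeR adjusted p = 0.0387, and 0.165 without chow liver 1). Naip1, a partner of NLRC4, was at 1.31, 1.11 and 1.02 CPM in chow, 1.77, 1.50, 1.01 and 1.77 in WDA-saline and 0.388, 0.520, 0.551 and 0.583 in WDA-DT. It fell by 1.56 in WDA-DT against WDA-saline (edgeR adjusted p = 0.00671) and kept that call when any 1 liver was left out. Naip2 rose by 1.09 in WDA-DT against chow (edgeR adjusted p = 0.00862). The Naip genes are close copies, so reads may be split between them and these values are uncertain. Pycard, which encodes the adaptor ASC, rose in WDA-DT against chow by 1.36 (edgeR adjusted p = 0.0183, and 0.0786 without chow liver 1). Without WDA-DT liver 2, 7 of the 14 were higher and 1 lower in WDA-DT against WDA-saline, and total-count scaling gave 6 and 1.

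Of 10 tested caspases and pyroptosis effectors, 2 were higher in WDA-saline against chow (Gbp3 and Gsdme) with the other 8 not called. In WDA-DT against WDA-saline 1 was higher (Panx1, a channel) and 2 lower (Casp8 and Gbp3), and in WDA-DT against chow 4 were higher (Gbp3, Gsdme, Panx1 and Casp4), while Casp8 was lower. Gbp3, an interferon-induced GTPase, rose by 1.29 in WDA-saline against chow (edgeR adjusted p = 0.00481). Its levels were 3.04, 4.24 and 4.34 CPM in chow, 12.4, 8.26, 9.15 and 8.18 in WDA-saline and 5.88, 5.47, 5.69 and 6.83 in WDA-DT, where it fell from WDA-saline by 0.67 (edgeR adjusted p = 0.0219, and 0.0672 without WDA-saline liver 1). With total-count scaling the fall was 0.32 (edgeR adjusted p = 0.244). Guanylate-binding protein genes are close copies and may share reads. Gsdme, another gasdermin, rose by 1.40 in WDA-saline (edgeR adjusted p = 0.0295, and 0.128 without chow liver 1) and by 1.86 in WDA-DT against chow (edgeR adjusted p = 0.00509). Casp8, the caspase of death receptors, fell by 0.57 in WDA-DT against WDA-saline (edgeR adjusted p = 0.0086). That fall was 0.25 with total-count scaling (edgeR adjusted p = 0.0728). Casp4, the murine non-canonical inflammasome caspase, was at 1.46, 1.08, 4.59 and 5.85 CPM in WDA-DT, with livers 3 and 4 the highest as for Casp1, and rose against chow by 1.75 (edgeR adjusted p = 0.0358, and 0.114 without chow liver 2).

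Of 11 TNF pathway genes, 1 was higher in WDA-saline against chow (Mlkl), 2 in WDA-DT against WDA-saline (Tnfaip3 and Lta) and 5 in WDA-DT against chow (Mlkl, Tnfaip3, Ltb, Traf2 and Tnfrsf1a), and the others were not called. Lta, the lymphotoxin alpha gene, was at 0 in 3 WDA-saline livers and at 0.0366 CPM in WDA-saline liver 3, and at 0.269, 0.0416, 0.155 and 0.278 CPM in WDA-DT, so both groups lie near the limit of detection. Tnfaip3, the NF-kB target that encodes the inhibitor A20, was at 3.61, 3.77 and 4.29 CPM in chow, 6.64, 5.69, 12.5 and 4.90 in WDA-saline and 21.6, 7.35, 17.0 and 20.1 in WDA-DT. It rose by 2.09 in WDA-DT against chow (edgeR adjusted p = 0.00608) and by 1.15 against WDA-saline (edgeR adjusted p = 0.0348, and 0.099 without WDA-saline liver 2). Mlkl, the necroptosis executor, rose by 1.43 in WDA-saline against chow (edgeR adjusted p = 0.0226, and 0.0933 without chow liver 3) and by 1.89 in WDA-DT against chow (edgeR adjusted p = 0.00426).

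Of 12 tested NF-kB factors and targets, 3 were higher in WDA-saline against chow (Cxcl1, Cxcl2 and Ccl2), 4 in WDA-DT against WDA-saline (Relb, Nfkb2, Lcn2 and Icam1) and 7 in WDA-DT against chow, and the others were not called. Cxcl2, a neutrophil chemokine, was at 0 in all 3 chow livers and at 0.408, 0.325, 0.878 and 0.426 CPM in WDA-saline and 0.716, 0.499, 0.452 and 0.689 in WDA-DT. Set against 3 counts per chow library, a mean of 0.0693 CPM, the WDA-saline mean was 7.35-fold higher and the WDA-DT mean 8.5-fold higher. The differences were called (edgeR adjusted p = 0.00291 and 0.00217). The folds are lower bounds only if each count is a separate fragment, and they would be smaller if counts hold both mates. They also leave out the spread of the WDA livers. Ccl2, a monocyte chemokine, rose by 3.29 in WDA-saline (edgeR adjusted p = 0.0245, and 0.118 without chow liver 1) and by 4.71 in WDA-DT against chow (edgeR adjusted p = 0.00361). Relb, a factor of the alternative NF-kB path, rose by 1.55 in WDA-DT against WDA-saline (edgeR adjusted p = 0.0182, and 0.059 without WDA-saline liver 2). Its levels were 10.5, 3.23, 7.85 and 9.82 CPM in WDA-DT and 1.66 to 4.39 in WDA-saline. Lcn2, the iron-binding acute-phase protein lipocalin-2, rose by 2.76 there (edgeR adjusted p = 0.0143). Its levels were 81.5, 97.7 and 11.8 CPM in chow, 9.37 to 41.2 in WDA-saline and 75.4 to 234 in WDA-DT. Lcn2 in WDA-DT overlapped chow and was not called against it (1.22, edgeR adjusted p = 0.209). Leaving out WDA-DT liver 2 gave 8 of the 12 higher in WDA-DT against WDA-saline, and in the same comparison 4 higher and 1 lower of the TNF list and 2 higher and 4 lower of the caspase list. In WDA-DT against chow it gave 9 higher of the NF-kB list, 6 higher and 1 lower of the TNF list, 6 higher and 3 lower of the sensors, and 4 higher of the caspases. Total-count scaling gave 9, 5 and 2 higher of the NF-kB, TNF and caspase lists in WDA-DT against WDA-saline and 10, 7 and 7 in WDA-DT against chow, where Nlrp6, Naip1, Nek7, Casp8 and Irak2 were then not called. These counts stand beside larger backgrounds: without WDA-DT liver 2, 22.6% and 22% of all tested genes were higher in WDA-DT against WDA-saline and against chow, and with total-count scaling 30.4% and 36.4% were. Markers of several cell types also differed between the WDA groups. The cholangiocyte sum was 20.4 to 23.7 CPM in WDA-saline and 107, 28.7, 73.2 and 122 in WDA-DT. The stellate cell sum was 173 to 315 CPM in WDA-saline and 244 to 535 in WDA-DT. The sinusoidal endothelial sum was 284 to 305 CPM in WDA-saline and 206 to 245 in WDA-DT. Of 8 general macrophage markers 2 were called higher and 1 lower, and of 7 monocyte markers 1 was higher, beside 14.3% and 7.62% of all tested genes. The part of these markers in the list counts was not tested.

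**Figure D4:**
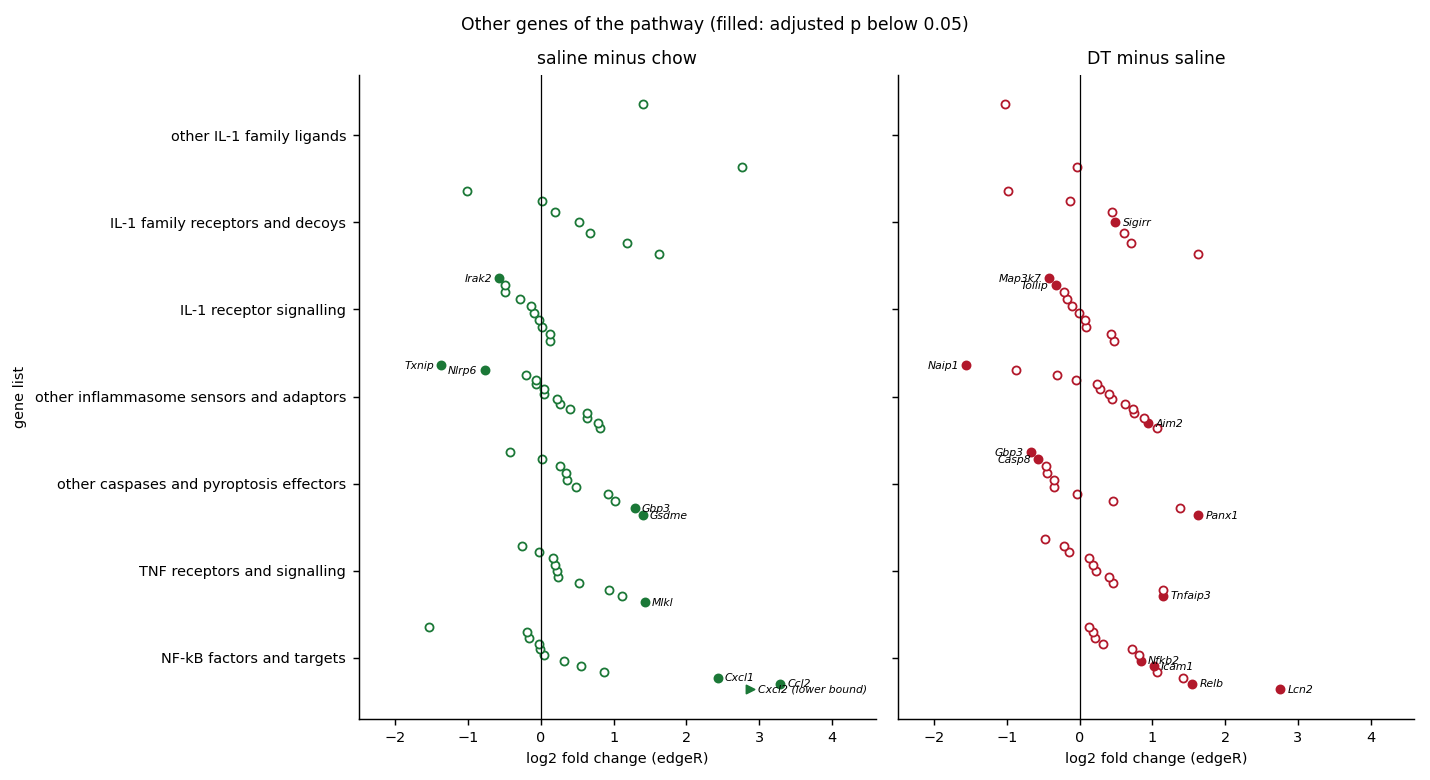
Log2 fold change (x axis, edgeR) of each tested gene of the 7 pathway lists (rows) in WDA-saline against chow (left) and WDA-DT against WDA-saline (right); filled, named points passed an adjusted p of 0.05. NF-kB targets hold 3 filled points on the left and 4 on the right, all to the right of 0. Cxcl2 on the left is a triangle at its lower bound against 3 counts per chow library, each count taken as a separate fragment, and Lta is not drawn.

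**Figure D5:**
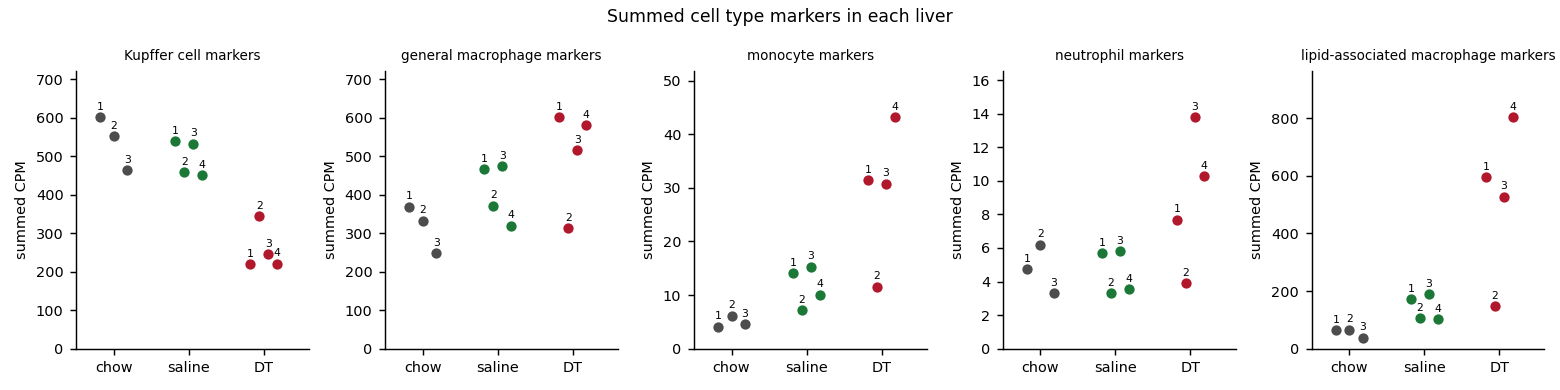
Summed CPM (y axis, linear and from 0) of 5 lists of macrophage, monocyte and neutrophil markers in each liver, by group (saline and DT stand for WDA-saline and WDA-DT); points carry replicate numbers. The Kupffer sum is 220 to 344 CPM in WDA-DT against 451 to 540 in WDA-saline, and WDA-DT liver 2 lies at 148 CPM, within the WDA-saline range, for the lipid-associated macrophage list.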

How the data were processed

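Whole-liver RNA of 11 mice was compared as 3 chow, 4 WDA-saline and 4 WDA-DT livers. Per the submitters' processing notes, the tools were FastQC, STAR and featureCounts and the build GRCm39, and versions, annotation, strand and mate settings are not given in the sources used here. The deposited values are the authors' raw counts per gene. Of counts from 1 to 20, 76.6% to 81.5% were even, so counts may hold both mates, and halved counts were tried. Genes were kept with filterByExpr, leaving 17038 of 28842 with any count, and tested by edgeR 4.0.16's quasi-likelihood method (TMM, robust, 1 mean per group over all 3 groups, 8 residual degrees of freedom, limma 3.58.1, R 4.3.3), two-sided, with Benjamini-Hochberg adjustment at 0.05. The common biological coefficient of variation was 30.1%. Log2 CPM used a prior count of 2. SE was the log2 difference divided by the root of F. Exon lengths and overlaps came from GENCODE M21.

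Alternatives were 19 planned (DESeq2 1.42.0, limma-voom, scalings, filters, a replicate block, only the 2 groups compared, each liver left out) and 4 added after seeing the data (upper-quartile scaling, GC correction, halved counts, without WDA-DT livers 1 and 2). The members and lists were chosen with earlier results of these data known. By rule all 10 members are named, up to 4 genes with the smallest p of each pathway list and comparison, and the 3 genes most like a member for up to 4 members; other genes named beyond these were chosen after their values were seen. The extraction text describes sorted CD45-positive cells for single-cell work; the whole-liver label and the hepatocyte transcripts go against applying it here. No group of 4 livers had an outlying member value by Dixon's criterion, in 20 groups screened. A gene of the caspase list is not reported here.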

Additional observations from a re-analysis of the deposited data

How the results depend on the processing

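Of 687 alternative values of the 30 member differences, 631 kept their direction and side of the threshold, 16 lost a call, 21 gained one and 19 changed sign, none of the latter a called value; the causes were not tested. Genes called in WDA-saline against chow numbered 950, and 1739 by DESeq2, 559 with a replicate block, 3105 with only the 2 groups, 3311 without WDA-DT livers 1 and 2, and 287 to 1924 with 1 liver left out. For WDA-DT against WDA-saline the count was 3734, and 5629 with total-count scaling, 2303 with only the 2 groups, 7894 without WDA-DT livers 1 and 2, and 1786 to 6824 with 1 liver left out. For WDA-DT against chow it was 3919, and 6536 with total-count scaling, 2210 with the block, 2089 with only the 2 groups, 7827 without livers 1 and 2, and 1786 to 6834 with 1 left out. Total-count scaling moved the share of calls that were higher from 43.9% to 67%, from 65.2% to 92.1% and from 64.5% to 94.8% in these comparisons.

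Members called numbered 1 in each comparison. In WDA-saline against chow there were 2 by DESeq2, with only the 2 groups and without WDA-DT livers 1 and 2, and 1 to 2 with 1 liver left out. Between the WDA groups there were 0 with no filter, the block, only the 2 groups, upper-quartile scaling or GC correction, 2 without WDA-DT livers 1 and 2, and 0 to 1 with 1 left out. Total-count scaling also gave 1 there, but the gene and direction changed: Gsdmd was called higher and Il18 was not called. In WDA-DT against chow there were 5 with total-count scaling, 3 by DESeq2 and without WDA-DT livers 1 and 2, 2 with upper-quartile scaling or GC correction, and 1 to 4 with 1 left out. The sign changed for Il1rn in WDA-saline against chow with the block (-0.10) and GC correction (-0.059), with -0.21 to 0.47 when 1 liver was left out. Between the WDA groups it changed for Nlrp3 with total-count scaling (0.30), upper-quartile scaling (0.032) and without WDA-DT livers 1 and 2 (0.045), with -0.18 to 0.034 when 1 liver was left out. It changed for Nlrp12 there with total-count (0.29) and upper-quartile scaling (0.040), with -0.17 to 0.11 when 1 was left out, and for Nlrc4 with -0.0074 to 0.34 when 1 was left out. In WDA-DT against chow it changed for Il18 with total-count scaling (0.10) and for Il1a with -0.016 to 0.66 when 1 liver was left out. Same-numbered livers had correlations of -0.16 to 0.18 over 10 pairs, and 3 of 10 correlated best with their own number. The labels do not say whether same-numbered livers share a batch, and this was not tested. Levels near 3 counts, as for Tnf in chow, are limited by depth.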

Other observations

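The balance of antagonist to ligand was looked at after the values were seen. The ratio of Il1rn to Il1b counts was 2.58, 7.45 and 6.82 in chow, 3.58, 1.01, 2.48 and 3.35 in WDA-saline and 4.45, 2.61, 5.12 and 5.54 in WDA-DT. The mean log2 ratio was 2.34 ± 0.85 in chow (SD, n = 3), 1.23 ± 0.84 in WDA-saline (SD, n = 4) and 2.09 ± 0.49 in WDA-DT (SD, n = 4). The difference of WDA-saline from chow was -1.12 (two-sided exact permutation p = 0.2), that of WDA-DT from WDA-saline 0.87 (exact permutation p = 0.114) and that of WDA-DT from chow -0.25 (exact permutation p = 0.571). Over the 6 ratio tests run, those of Il1a to Il1b included, each Benjamini-Hochberg adjusted p was 0.571 (exact permutation tests), and the smallest p the design of 3 against 4 or 4 against 4 allows is 0.0286.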
